A study of Mus musculus with 2 samples.

Results

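The Sprr2 genes form a family of small proline-rich proteins on mouse chromosome 3. The 10 members described here, Sprr2a1, Sprr2a2, Sprr2a3, Sprr2b, Sprr2d, Sprr2e, Sprr2f, Sprr2g, Sprr2h and Sprr2k, were taken by symbol out of 43346 mouse genes in each of 2 gene tables. They lie on the plus strand of mm10 between 92215799 and 92433925. They were picked with their levels, expected counts and posterior standard deviations in view, so those values are a description with no test. Both libraries came from stomachs of C57BL/6J mice, an inbred strain, aged 8 weeks, with littermates of both sexes pooled. RNA longer than 200 nucleotides was selected for poly(A), depleted of ribosomal RNA and read as strand-specific pairs of 76 nucleotides. The labels carry biological replicate numbers 1 and 2 and name no treatment, mutation or second tissue, so the libraries form 1 group. Both libraries have a single donor record in common, so the spread between them may be partly technical. Replicate 1 held 51633658 expected counts on mouse genes and replicate 2 held 61635975.

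In stratified squamous epithelium, small proline-rich proteins are substrates of transglutaminases, which link them to loricrin and other proteins into the cornified envelope under the plasma membrane of the outermost cells. The mouse stomach is lined by such a keratinized epithelium in the forestomach and by glandular epithelium in the rest. The whole organ was sampled. In whole tissue, fewer cells of a type and less RNA per cell cannot be told apart.

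Markers of squamous epithelium were present in both libraries. Krt13 had 630 TPM (a level per transcript length, relative to all transcripts of the library) in replicate 1 and 544 TPM in replicate 2, and its partner keratin Krt4 had 556 TPM in replicate 1 and 411 TPM in replicate 2. The basal cell keratin Krt5 had 85.2 TPM in replicate 1 and 115 TPM in replicate 2, and Trp63, the transcription factor of basal squamous cells, had 5.60 TPM in replicate 1 and 9.13 TPM in replicate 2. A further squamous marker, Ivl, was low, at 1.69 TPM in replicate 1 and 2.44 TPM in replicate 2. Of 35 cornified envelope genes outside Sprr, 3 were listed at 0 in both libraries. Some glandular genes were far more abundant, such as the chief cell gene Pgc at 101314 TPM in replicate 1 and 148481 TPM in replicate 2. Others lay near Krt13, such as the chief cell gene Gif at 584 TPM in replicate 1 and 758 TPM in replicate 2. The pit cell gene Muc5ac had 500 TPM in replicate 1 and 895 TPM in replicate 2. Of 6 genes on a list for epidermis and hair, Asprv1, which encodes a protease of cornifying epidermis, had 193 TPM in replicate 1 and 116 TPM in replicate 2. Krt77 did not exceed 0.05 TPM, and the other 4, all keratin genes (Krt2, Krt25, Krt71 and Krt73), were listed at 0 in both libraries.

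The Sprr2a copies share nearly all of their coding sequence. Sprr2a1 and Sprr2a2 had the same 249 coding bases (the stop codon is not counted), and Sprr2a3 differed from them at 3 positions. The coding sequences are shown because the levels below turn on these few differences. They come from GENCODE M21 transcripts on mm10, plus strand, at chr3:92219092-92219340 for Sprr2a1, chr3:92288588-92288836 for Sprr2a3 and chr3:92317449-92317742 for Sprr2b. Capitals in Sprr2a1 mark a repeat unit of 54 bases that returns with the junction reads. Capitals in Sprr2a3 and Sprr2b mark bases that differ from Sprr2a1 or have no counterpart in it.
Sprr2a1: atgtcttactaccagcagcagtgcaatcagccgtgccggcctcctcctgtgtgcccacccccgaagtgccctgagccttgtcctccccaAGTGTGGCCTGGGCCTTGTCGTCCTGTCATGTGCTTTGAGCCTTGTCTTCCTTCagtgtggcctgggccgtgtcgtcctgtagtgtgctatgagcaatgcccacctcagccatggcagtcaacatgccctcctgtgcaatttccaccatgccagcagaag
Sprr2a3: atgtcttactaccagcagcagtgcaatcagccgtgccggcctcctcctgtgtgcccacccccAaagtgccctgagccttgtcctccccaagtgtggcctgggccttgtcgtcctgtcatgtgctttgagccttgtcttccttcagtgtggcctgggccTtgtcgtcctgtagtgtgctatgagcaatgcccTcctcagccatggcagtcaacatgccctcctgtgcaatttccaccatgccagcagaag
Sprr2b: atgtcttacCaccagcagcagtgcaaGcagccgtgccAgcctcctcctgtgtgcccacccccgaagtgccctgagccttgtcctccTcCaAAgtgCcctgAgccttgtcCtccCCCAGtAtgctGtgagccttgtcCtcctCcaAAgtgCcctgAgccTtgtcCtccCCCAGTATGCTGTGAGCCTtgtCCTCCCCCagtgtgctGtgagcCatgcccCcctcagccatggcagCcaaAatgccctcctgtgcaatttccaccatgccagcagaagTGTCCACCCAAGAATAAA
Counted from the first base of the start codon, the changes from Sprr2a1 to Sprr2a3 are G63A, G159T and A192T.

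The remaining members were more distant. Aligned with Sprr2a1, gap positions included, the coding sequence of Sprr2b (294 bases) was 74.5% identical and that of Sprr2d (255 bases) 69.3%. Sprr2e and Sprr2f (228 bases each) were 64.2% and 61.5% identical to it, Sprr2h (324 bases) 61.4% and Sprr2k (204 bases) 55.4%. The closest pair outside Sprr2a was Sprr2e and Sprr2f, at 90.0%, and the most distant was Sprr2h and Sprr2k, at 53.5%. Sprr2g is annotated as a polymorphic pseudogene and had no coding sequence to align.

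In the deposited division of shared reads, Sprr2a2 (ENSMUSG00000068893.5, 92215920 to 92256724) carried nearly the whole level of the cluster. All 722 bases of its abundant transcript also stand in the Sprr2a1 model, so they cannot tell these genes apart. As deposited, Sprr2a2 had 65818 TPM in replicate 1 and 29922 TPM in replicate 2, a mean of 47870 ± 25383 TPM (SD, n = 2). It was the third most abundant gene of the stomach by the mean TPM of both libraries, after Clps, which encodes the lipase cofactor colipase, and Pgc. That rank did not hold in each library: Pla2g1b, which encodes a pancreatic phospholipase, had 20666 TPM in replicate 1, below Sprr2a2, and 33764 TPM in replicate 2, above it. Replicate 1 was the higher library. Sprr2a2 made up 97.7% of the summed TPM of the members in replicate 1 and 97.8% in replicate 2. The 10 members together reached 67350 TPM in replicate 1 and 30605 TPM in replicate 2, a mean of 48978 ± 25983 TPM (SD, n = 2). They took 3.96% of the expected counts of replicate 1 (exact 95% binomial interval 3.95% to 3.96%) and 1.83% of those of replicate 2 (1.83% to 1.84%). These intervals cover counting error only: the reads carry no molecular identifiers, so copies of 1 molecule may be counted more than once.

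Sprr2a3 (ENSMUSG00000074445.4, 92285417 to 92291405) ranked next among the members, with 1440 TPM in replicate 1 and 623 TPM in replicate 2. Sprr2a1 (ENSMUSG00000078664.2, 92215799 to 92221911) stood far lower in that division, at 34.1 TPM in replicate 1 and 35.3 TPM in replicate 2. Its coding sequence is the same as that of Sprr2a2, and the gap between these genes was not tested apart from the division of shared reads. Replicate 1 was higher for Sprr2a2 and Sprr2a3, and the libraries lay close together for Sprr2a1.

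The members outside Sprr2a were low. Sprr2b had 28.2 TPM in replicate 1 and 8.63 TPM in replicate 2. Sprr2d had 17.3 TPM in replicate 1 and 8.87 TPM in replicate 2. Sprr2f had 7.16 TPM in replicate 1 and 2.65 TPM in replicate 2. Replicate 1 was higher for each of these members. Sprr2e had 4.59 TPM in replicate 1 and 3.42 TPM in replicate 2. Sprr2g, Sprr2h and Sprr2k stayed below 1 TPM in both libraries, with 0, 6 and 12 expected counts in replicate 1 and 17, 11 and 17 in replicate 2. The 7 members outside Sprr2a summed to 57.9 TPM in replicate 1 and 25.0 TPM in replicate 2, so the Sprr2a copies stood 1161-fold above them in replicate 1 and 1225-fold in replicate 2. The order from Sprr2a2 through Sprr2a3 to Sprr2a1 was the same in both libraries. Below them Sprr2b and Sprr2d changed places between the libraries, as did Sprr2e and Sprr2f, and Sprr2g and Sprr2h.

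**Figure D1:**
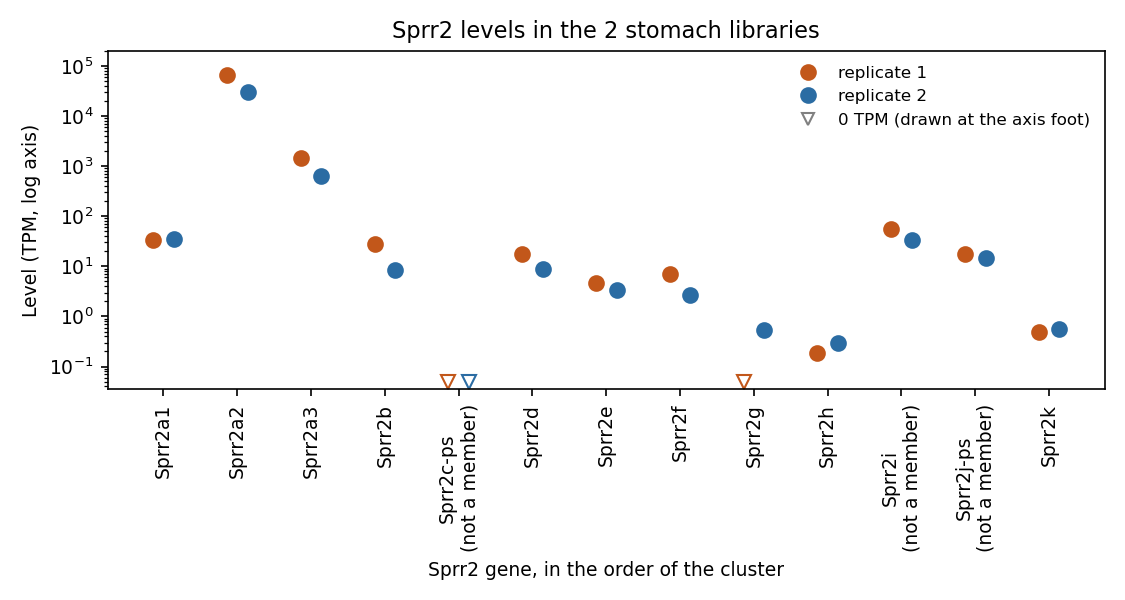
TPM of every Sprr2 gene in the order of the cluster, on a log axis, with 1 point for replicate 1 (left of each pair) and 1 for replicate 2. Sprr2a2 stands at 65818 and 29922 TPM, above Sprr2a3 at 1440 and 623 TPM, and all the others lie under 60 TPM.

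3 further genes of the cluster are not among the members and were read for comparison. Sprr2i had 54.6 TPM in replicate 1 and 33.8 TPM in replicate 2, above every member outside Sprr2a2 and Sprr2a3 in replicate 1. The gene named Sprr2j-ps had 17.4 TPM in replicate 1 and 14.6 TPM in replicate 2. The pseudogene Sprr2c-ps was listed at 0 in both libraries.

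The level of Sprr2a2 rested on a single annotated transcript. That model, of 722 bases, joins exon 1 of Sprr2a1 (92215920 to 92215962) to exon 2 of Sprr2a2 (92253886 to 92254564) across an intron of 37923 bases. It held 1964850 of the expected counts of Sprr2a2 in replicate 1 and 1089871 in replicate 2. The other Sprr2a2 model, of 2867 bases, has its own exon 1 and an exon 2 that is 2160 bases longer, and it held 99.4 expected counts in replicate 1 and 113 in replicate 2. The only Sprr2a1 model is also a long one, of 3003 bases, with 5513 expected counts in replicate 1 and 6805 in replicate 2. All 722 bases of the abundant model stand unchanged inside the Sprr2a1 model, so no base of it distinguishes Sprr2a2 from Sprr2a1.

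For Sprr2a3 the annotation holds a model of 682 bases with no exon 1 and a spliced model of 2880 bases with the long exon 2. The short model held 32591 expected counts in replicate 1 and 18541 in replicate 2, and the spliced one 39708 in replicate 1 and 13448 in replicate 2. Neither Sprr2a1 nor Sprr2a3 has a model in the deposited tables that joins the gene's own exon 1 to a short exon 2. Along the 722 bases Sprr2a3 differed at 10 positions, 3 of them in the coding sequence. The first difference follows 81 bases of exon 2 that are the same, so a single read of 76 bases over the exon junction can hold none of them, while its mate can.

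The mm9 contigs, stretches of continuous coverage deposited for both libraries together, covered the short exon 2 and little of its long extension. For Sprr2a1 they covered 87.5% of the 679 bases of the short exon 2 and 10.8% of the 2160 bases beyond. For Sprr2a2 they covered 82.9% of the short exon 2 and 8.10% of the bases beyond. For Sprr2a3 they covered 100% of the short exon 2 and 20.6% of the bases beyond.

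**Figure D2:**
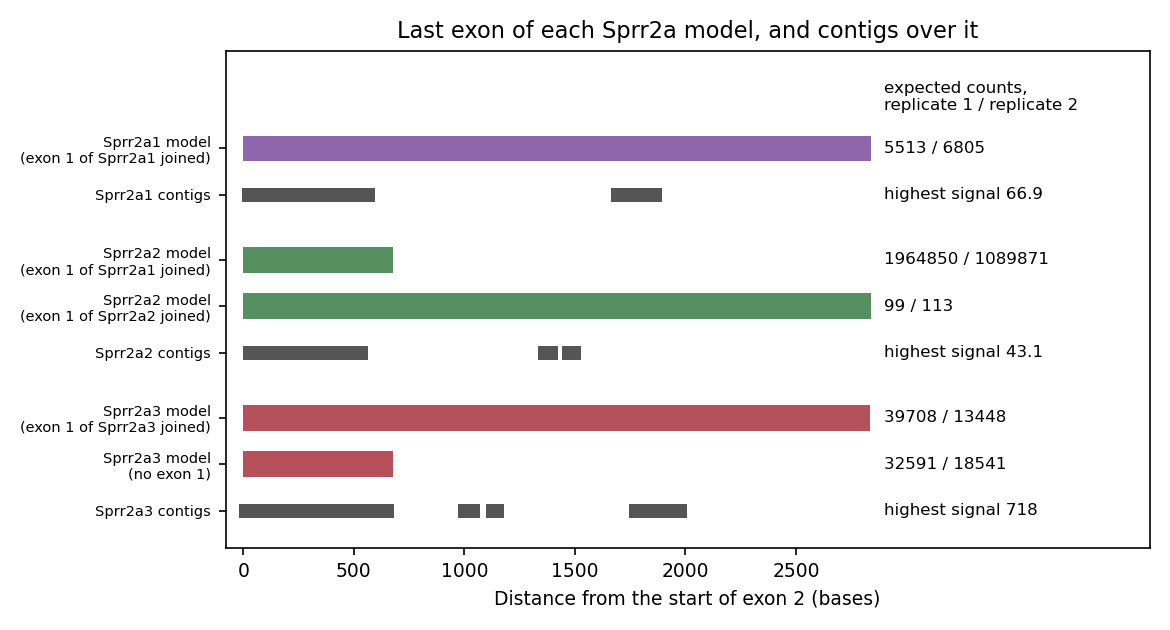
The last exon of each Sprr2a transcript model (colored bars, with its expected counts in replicate 1 and replicate 2 at the right) and the mm9 contigs over the same stretch (dark bars), by distance in bases from the start of exon 2. Contigs cover most of the first 679 bases in each copy, with highest signals of 66.9, 43.1 and 718 for Sprr2a1, Sprr2a2 and Sprr2a3.

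A direct measure of how far the copies can be told apart is the share of 76-base windows of a transcript that occur in no other gene. None of the 647 windows of the 722-base Sprr2a2 model was particular to Sprr2a2. Of the windows of the Sprr2a1 model 5.81% were particular to it, and of those of the long Sprr2a2 model 5.44%. The shares were 71.7% for the short and 53.0% for the long Sprr2a3 model. Outside Sprr2a every Sprr2 model had a share of 94.3% or more, Sprr2b at 96.2% and Sprr2e at 94.8%. Every window shared between genes was shared within the Sprr2 family. Between the 722-base model and Sprr2a3, 33.1% of 76-base windows held no difference, and no window of 207 or 192 bases, the mean fragment lengths that the effective lengths of replicates 1 and 2 imply, was free of one. A pair of reads covers only 76 bases at each end of such a fragment. A difference in its middle can go unread, so not every fragment of these lengths tells the genes apart.

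**Figure D3:**
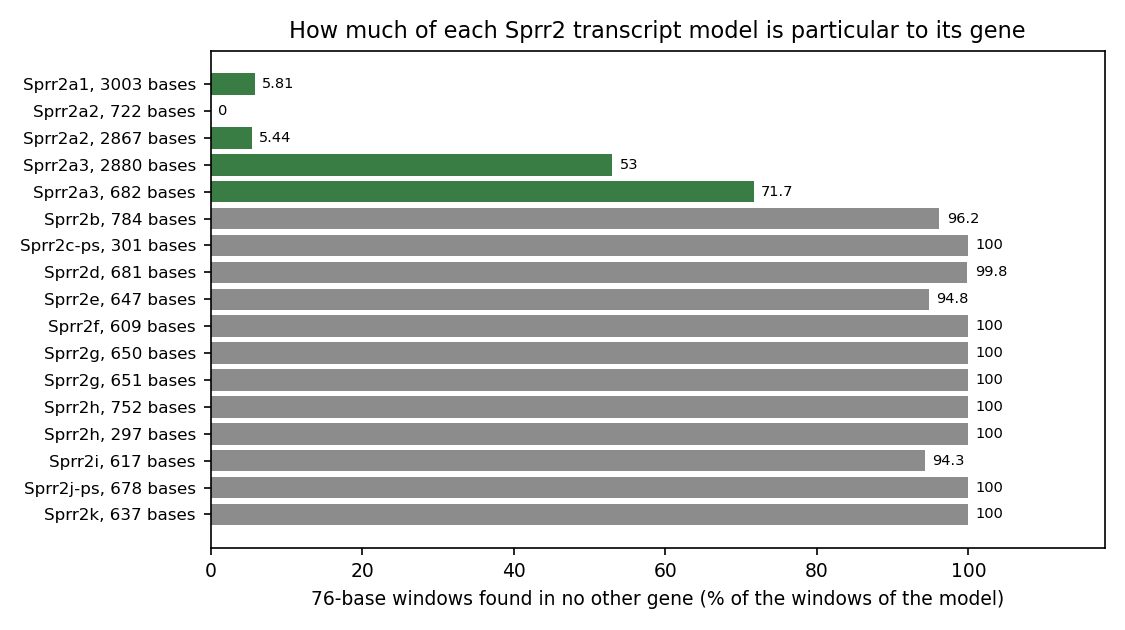
Share of the 76-base windows of each Sprr2 transcript model that occur in no other gene, in percent, with Sprr2a models in green. The 722-base Sprr2a2 model stands at 0, the long Sprr2a1 and Sprr2a2 models at 5.81% and 5.44%, and the models outside Sprr2a at 94.3% to 100%.

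The deposited posterior standard deviation of a count shows how far the model that divided shared reads left it open. For Sprr2a2 it was 54.0 counts in replicate 1 and 52.9 in replicate 2, which is 0.00275% and 0.00485% of the expected count. For Sprr2a3 it was 38.7 counts (0.0535%) in replicate 1 and 31.4 counts (0.0982%) in replicate 2. For Sprr2a1 it was 41.7 counts (0.757%) in replicate 1 and 54.2 counts (0.796%) in replicate 2, as a share of the expected count the largest among the members. Across all genes with at least 100 expected counts, 4.11% had a posterior standard deviation of 0.5% or more in replicate 1 and 4.35% in replicate 2. Among the members that reached 100 counts it was 1 of 7 in replicate 1 and 1 of 6 in replicate 2, Sprr2a1 in both. Most genes had a posterior standard deviation of 0: 79.8% of those with at least 100 expected counts in replicate 1 and 90.1% in replicate 2. Among the members at that count it was 0 for 3 of 7 in replicate 1 and 2 of 6 in replicate 2. These values describe the division among the models given to it, and Sprr2a2 had a value near 0 although its abundant transcript has no base of its own.

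Reads over splice junctions gave a second readout of the cluster. The junction table is on mm9 and pools both libraries. Of 14 annotated Sprr2 introns, 12 were found in it at 1 common spacing and 13 within 3 bases of that spacing. Exon 1 of Sprr2a1 to exon 2 of Sprr2a1 had 142933 reads, exon 1 of Sprr2a1 to exon 2 of Sprr2a2 had 142913, and exon 1 of Sprr2a2 to exon 2 of Sprr2a2 had 142773. These counts differed by 0.112% at most. Whether they are the same reads was not tested, and they were not added up. The joins of exon 2 of Sprr2a3 to exon 1 of Sprr2a1, Sprr2a2 and Sprr2a3 likewise had 35336, 35093 and 34861 reads. The exon 2 of Sprr2b was reached by 710 reads from its own exon 1 and by 710 from a donor in Sprr2a. That donor was 1 of 3 other donors to this exon, all with nearly the same number of reads.

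Counted once, the junction of Sprr2a1 and Sprr2a2 had 4.10 times the reads of the Sprr2a3 junction. The expected counts of Sprr2a1 and Sprr2a2 together were 27.3 times those of Sprr2a3 in replicate 1 and 34.3 times in replicate 2, and their TPM 45.7 and 48.1 times. Sprr2d had 470 junction reads, Sprr2e 175, Sprr2f 175, Sprr2k 10, Sprr2h 4 and Sprr2g 1, in the order of their levels except among the lowest. Set against the mean TPM, Sprr2a3 had 33.8 junction reads per TPM, and 6 Sprr2 genes outside Sprr2a at 1 TPM or more had between 21.6 and 43.7, with a median of 35.8. Sprr2a1 and Sprr2a2 together had 2.98. The TPM of Sprr2a3 depends on its effective length, which was 868 bases in replicate 1 and 748 in replicate 2 with the long model included. That of Sprr2a2 was 516 and 531 bases. A shorter effective length would raise the TPM of Sprr2a3 and lower its reads per TPM, and this was not tested. For comparison, 10074 other protein-coding genes had a median of 25.3 reads per TPM at their most used intron (5th to 95th percentile 3.82 to 98.4), and 370 of them lay below 2.98. Among the 55 of those at 1000 TPM or more the median was 11.7, and 12 lay below 2.98.

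The contig signal set the copies apart in another way. The contig at exon 2 had a signal of 718 for Sprr2a3, 66.9 for Sprr2a1 and 43.1 for Sprr2a2. Sprr2a3 was thus the highest of the copies in this readout, and Sprr2a2 the highest in TPM. Per TPM, Sprr2a3 stood at 0.696 and the 6 genes outside Sprr2a between 0.383 and 1.14, while the sum of Sprr2a1 and Sprr2a2 stood at 0.00230. The value of Sprr2a3 depends on its effective length here as well. How reads with several possible places entered the contig signal is not given in the sources used here, and its part in this difference was not tested.

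**Figure D4:**
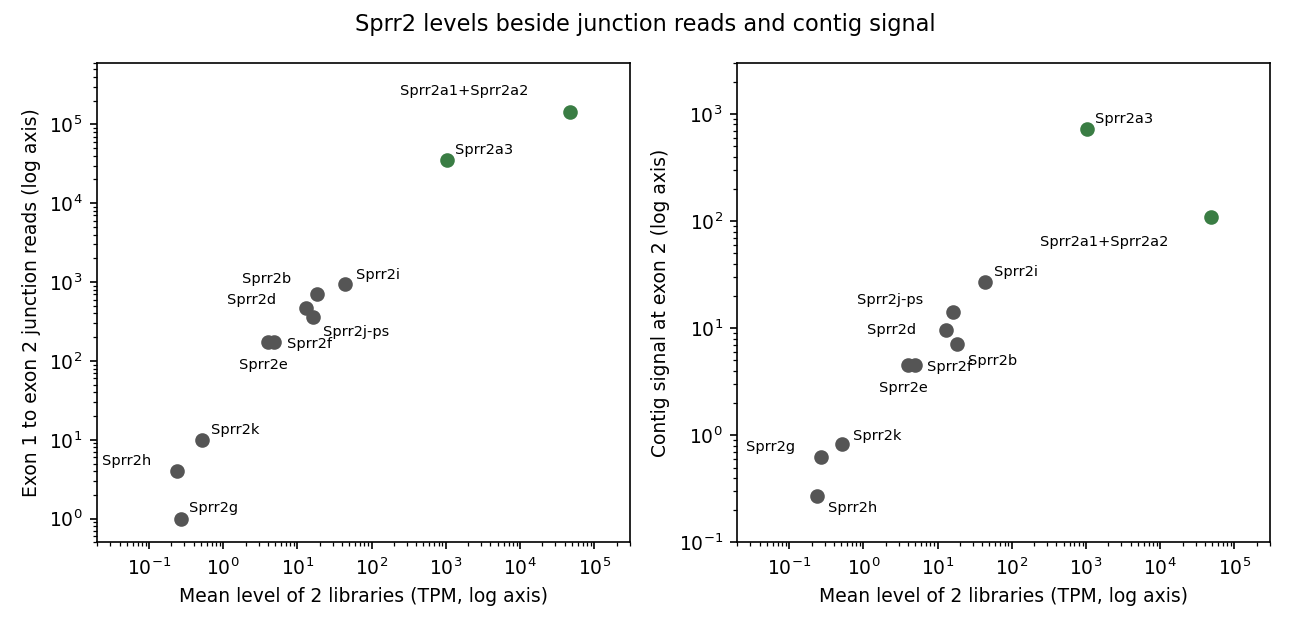
Reads over the junction from exon 1 to exon 2 (left) and contig signal at exon 2 (right) against mean TPM, all on log axes, with 1 point per Sprr2 gene and 1 for the sum of Sprr2a1 and Sprr2a2. Sprr2a3 lies among the per-TPM values of the genes outside Sprr2a in both panels (33.8 reads and 0.696 signal units), and Sprr2a1 with Sprr2a2 lies below them (2.98 reads and 0.00230 signal units). The place of Sprr2a3 depends on the effective length used for its TPM.

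Junction calls also fell inside exon 2 of Sprr2a, where no intron is annotated. In Sprr2a1 there were 112 such calls with 6475 reads, of which 3907 reads (60.3%) spanned 54 bases, which is 18 codons. The most used, with 2514 reads, left out coding positions 90 to 143, the stretch in capitals in the Sprr2a1 sequence, and had 1.76% of the reads of the annotated junction. Of those 54 bases 43 (79.6%) are the same as the 54 bases that follow. Spans of 70 bases came next, with 1832 reads (28.3%). In Sprr2a2 the shares were close to these, with 3913 reads (59.7%) over 54 bases and 1883 (28.7%) over 70. In Sprr2a3, which had 439 reads inside exon 2, spans of 70 bases were the most frequent, with 227 reads (51.7%), ahead of 54 bases with 109 (24.8%). Whether these calls come from RNA or from the alignment of repeats was not tested.

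Replicate 1 was the higher library for most of the cluster. On the log2 scale of scaled counts, replicate 1 over replicate 2, the ratio was 1.12 for Sprr2a2 (95% interval for counting error 1.12 to 1.12), 1.45 for Sprr2a3 (1.43 to 1.46), 1.69 for Sprr2b (1.52 to 1.88) and 1.38 for Sprr2f (1.00 to 1.82). It was 0.94 for Sprr2d (0.73 to 1.16), 0.39 for Sprr2e (0.01 to 0.79) and -0.03 for Sprr2a1 (-0.09 to 0.02). Of the 7 members that reached a mean of 1 TPM, 4 were at least 2-fold higher in replicate 1 and 0 at least 2-fold lower. Across 11582 genes at that level 5.67% were at least 2-fold higher and 2.77% at least 2-fold lower in replicate 1. Since the members were chosen on these tables and share reads, nothing is read from that count. For scarce members the intervals spanned 0, at -2.33 to 0.96 for Sprr2h and -1.43 to 0.92 for Sprr2k. Sprr2g had 0 counts in replicate 1 and 17 in replicate 2, and its counting interval had an upper end of -1.78. With 3 counts taken as the floor of replicate 1, Sprr2g was 4.70-fold lower there, a value that leaves out the counting error of replicate 2. For the summed counts the ratio was 1.12 (1.12 to 1.13), and the biological coefficient of variation between the libraries over 15234 genes was 0.293 in edgeR. With 2 libraries of 1 group no test of the difference was possible.

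Other genes of the cornified envelope had ratios on both sides of 0, mostly above it. Among the other Sprr genes, Sprr3, abundant in esophageal epithelium, had 1496 TPM in replicate 1 and 917 TPM in replicate 2 (log2 ratio 0.71), Sprr1a had 692 and 549 TPM (0.32), and Sprr1b had 20.6 and 21.3 TPM (-0.06). None of the 3 passed 2-fold, and Sprr4 was listed at 0. The summed Sprr2 level was 30.5 times that of the other Sprr genes in replicate 1 and 20.6 times in replicate 2. Of 28 cornified envelope genes outside Sprr at a mean TPM of at least 1, 16 were at least 2-fold higher in replicate 1 and 0 lower, with a median log2 ratio of 1.21 against 0.03 over all genes at that level. Over all genes at that level 5.67% were at least 2-fold higher and 2.77% lower. Of the 16 past 2-fold, 14 were late cornified envelope genes, and the 12 genes of the list outside that cluster had a median of 0.15. Lor, which encodes loricrin, the main protein of the envelope, had 1056 TPM in replicate 1 and 281 TPM in replicate 2 (1.92). Cnfn, which encodes cornifelin, had 4017 TPM in replicate 1 and 2260 TPM in replicate 2 (0.71). Dmkn, a secreted protein of differentiating keratinocytes, had 1078 and 1036 TPM (0.08), and Krtdap, another such protein, had 334 and 604 TPM (-0.37). Lce3c, of the late cornified envelope genes, had 389 TPM in replicate 1 and 166 TPM in replicate 2 (1.19).

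Keratins and desmosome genes of squamous epithelium had ratios on both sides of 0, between -1.17 and 0.79. Their median log2 ratio was 0.02 over 20 genes, with 0 at least 2-fold higher and 2 at least 2-fold lower in replicate 1. Across all genes at a mean TPM of at least 1, 5.67% were at least 2-fold higher and 2.77% lower. Nothing is read from such counts in lists this short. Krt13 had a ratio of 0.24, Krt4 of 0.45 and Krt10, a suprabasal keratin, of 0.47. Jup, which encodes plakoglobin, had -0.04 and Krt1 had 0.08. Of 14 transcription factors of squamous epithelium 1, the homeodomain factor Pitx1, was at least 2-fold higher, at 263 TPM in replicate 1 and 114 TPM in replicate 2 (1.10). Klf4, a factor of keratinocyte differentiation, had 255 and 241 TPM (0.25). The ratios of the next 3 by level were 0.80 for Junb, a subunit of AP-1, -0.01 for Elf3 and 0.34 for Klf5.

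Genes of other tissue layers mostly stayed within 2-fold, and in all but 1 of these lists the members lay on both sides of 0. The 6 smooth muscle genes had a median ratio of 0.77 and ran between -0.86 (Myh11) and 1.26 (Des), with Des alone past 2-fold. The 4 parietal cell genes had a median of 0.41 and ran between -0.59 (the exchanger Slc9a4) and 0.79 (the proton pump subunit Atp4b), with 0 past 2-fold in either direction. The 7 pit cell genes had a median of -0.12 and ran between -0.83 (Muc5ac) and 0.49 (Gkn3), with 0 past 2-fold. The 5 chief cell genes had a median of -0.55, all below 0, between -0.74 (Pga5) and -0.37 (Gif), with 0 past 2-fold and sums of 103777 TPM in replicate 1 and 152100 TPM in replicate 2. Of 10 genes of intestinal epithelium 5 reached a mean of 1 TPM, and 1 of them, Reg3g, was at least 2-fold higher in replicate 1, at 2.33 TPM in replicate 1 and 0.20 TPM in replicate 2. The part of these layers in the Sprr2 difference was not tested.

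**Figure D5:**
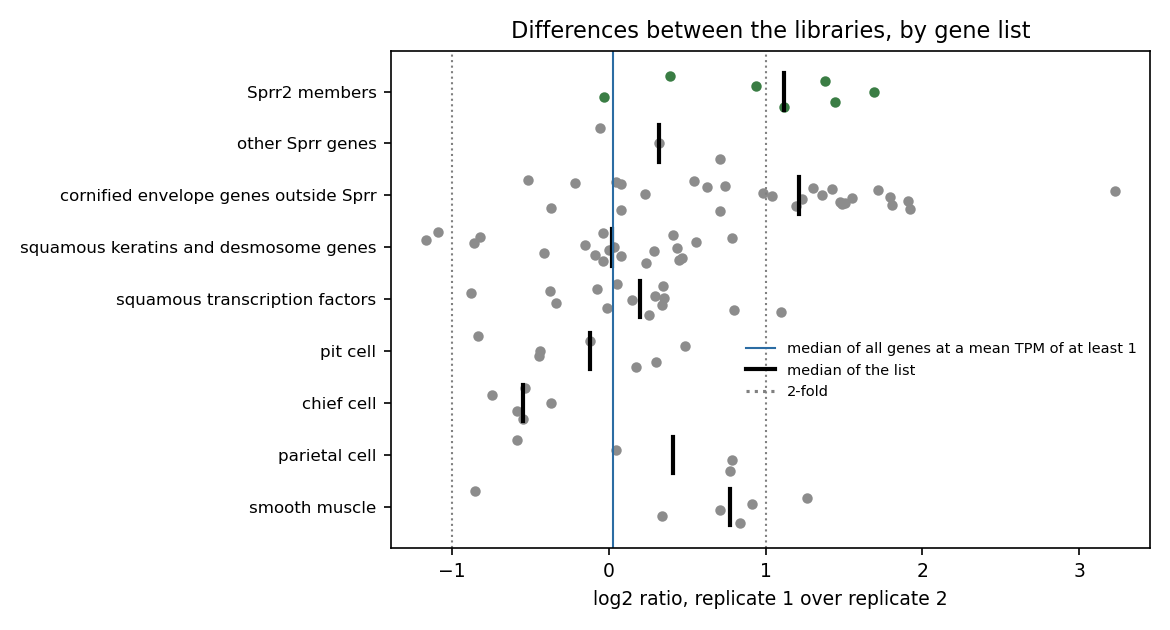
Log2 ratio of each gene at a mean TPM of at least 1, replicate 1 over replicate 2, by list, with the median of each list as a black bar, the median of all genes as a blue line and 2-fold as dotted lines. The medians of the Sprr2 members (1.12) and of the cornified envelope genes (1.21) lie to the right of 2-fold, and that of the keratins and desmosome genes (0.02) lies on the median of all genes (0.03). Without its 16 late cornified envelope genes, the cornified envelope list had a median of 0.15 over 12 genes.

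Among 721 protein-coding genes outside Sprr2 that averaged 100 TPM or more, 68 (9.43%) had a ratio at or above that of the summed Sprr2 counts. The 5 whose ratio was nearest were Tmem160 (1.12), Pdlim4 (1.14), Spint2 (1.11), Fam57a (1.10) and Tspan13 (1.10). The measure of likeness was this 1 difference between 2 libraries.

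The promoters of the members outside Sprr2a had a common layout. RefSeq promoter windows on GRCm38.p6, from 250 bases before to 50 bases after each gene's start, were found for 9 of the 10 members, all but Sprr2g. 3 of them are shown because they carry the shared letters in the same places. The stretches hold the 200 bases before the start, plus strand, at chr3:92338940-92339139 for Sprr2d, chr3:92364987-92365186 for Sprr2f and chr3:92432382-92432581 for Sprr2k. Capitals mark, from 5′ to 3′, the AP-1 letters, the octamer on the minus strand and the TATA box.
Sprr2d: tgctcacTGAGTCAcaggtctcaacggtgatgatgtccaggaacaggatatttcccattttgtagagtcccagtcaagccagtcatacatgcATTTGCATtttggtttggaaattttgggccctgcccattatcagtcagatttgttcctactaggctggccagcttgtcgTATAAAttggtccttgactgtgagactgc
Sprr2f: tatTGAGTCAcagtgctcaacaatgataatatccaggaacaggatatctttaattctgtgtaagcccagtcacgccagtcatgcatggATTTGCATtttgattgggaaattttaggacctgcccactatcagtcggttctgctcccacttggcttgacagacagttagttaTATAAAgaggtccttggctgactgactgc
Sprr2k: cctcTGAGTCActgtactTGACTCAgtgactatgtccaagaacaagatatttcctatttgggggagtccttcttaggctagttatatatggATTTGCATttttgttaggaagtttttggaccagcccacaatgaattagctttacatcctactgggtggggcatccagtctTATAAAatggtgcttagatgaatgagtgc

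On both strands, TATAAA (the TATA box), TGANTCA (the site of AP-1, the Jun and Fos factors) and ATGCAAAT (the octamer bound by POU factors) each occurred in 6 of the 9 windows, those of Sprr2b, Sprr2d, Sprr2e, Sprr2f, Sprr2h and Sprr2k. The TATA letters stood in 13.6% of all 32851 RefSeq promoters, those of AP-1 in 7.81% and the octamer in 1.74%. The TATA letters began 29 bases before the start in all 6, the octamer 108 to 112 bases before it and the AP-1 letters 193 to 198 bases before it. Sprr2k had a second AP-1 match at 182 bases. These genes share descent, and Sprr2d and Sprr2e were 89.3% identical over the window, so the matches are not independent. The core of the interferon-stimulated response element was in 0 of the 9 windows and in 3.44% of all. The frequent letters GGAA were in all 9 (96.0% of all promoters) and CACCC in 4 (57.5%). Sprr2b, with a mean level of 18.4 TPM, and Sprr2h, with one of 0.240 TPM, both held all 3 motifs.

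The Sprr2a windows held none of the 3 motifs. Those of Sprr2a1 and Sprr2a2 were identical over 300 bases, and Sprr2a3 matched them in all 272 aligned bases. The RefSeq start of Sprr2a1 lies 85 bases before the start of the abundant 722-base model. In the 250 bases before that model's start, put together from the RefSeq window and the Sprr2a1 transcript, which were identical over the 86 bases they share, TATAAA occurred once. It began 29 bases before the model's start, the distance seen in the other members. The AP-1, octamer and interferon-response letters had 0 matches there. A match is a description of letters, and no match says only that these letters are not in the window.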

How the data were processed

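Polyadenylated stomach RNA was measured in 2 libraries of 1 group. The authors deposited expected counts, TPM and FPKM values, posterior means and standard deviations of counts, TPM interval bounds (used as scores here) and the percent of each gene held by each transcript, made on mm10 with GENCODE M4, per the README and the file headers. Expected counts are fractional because a model divides shared reads. The aligner is not given in the sources used here. Junction counts and contig signal were deposited on mm9 as 1 table for both libraries. The numbers R1 and R2 in each junction's name are not tied to a library there.

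Mouse genes alone entered library sizes, and 42462 of 43346 IDs had a symbol. Expected counts were rounded, scaled by TMM in edgeR 4.0.16 and expressed as log2 CPM ratios with a prior count of 2. Intervals are exact conditional binomial at 95%. DESeq2 1.42.0 size factors, spike-in totals, TPM pseudocounts of 1 and 0.1, a prior count of 0.5 and no low-count filter were alternatives. The ratio step was tested on simulated data, and genes raised 3-fold had a median log2 ratio of 1.56. The libraries differed by more than sampling noise, at a chi-square of 257 per degree of freedom over 17200 genes. Transcript sequences and positions came from GENCODE M21 (mm10), promoters from RefSeq (GRCm38.p6). Alignments used Biopython 1.88. Coding sequences were compared in place of proteins, which were not analysed here. Junctions were tied to introns by length and a common spacing, within 3 bases, and contigs by starting within 20 bases of exon 2, with no conversion of coordinates between builds.

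The members and lists were chosen with earlier results of these data known. Genes named were all Sprr2 genes, up to 5 genes of highest mean TPM from each other list, the neighbours of Sprr2a2 by rank, and the 5 nearest ratios. Cell type markers were named as well, and in the lists of other tissue layers the lowest and highest ratios, chosen after their values were seen.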

Additional observations from a re-analysis of the deposited data

How the results depend on the processing

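No result changed its direction under the alternatives run. The log2 ratio of the summed Sprr2 counts, 1.12, was 1.15 with DESeq2 size factors, 1.08 with the spike-in total, 1.14 with TPM at a pseudocount of 1 or 0.1, and 1.14 with no filter on low counts. Each of these moved by more than the counting interval and stayed above 2-fold. The same 4 of 7 members passed 2-fold under each of the 6 scaling and unit alternatives, beside 5.67% of all genes under the main scaling. Nothing is read from that count, since the members were chosen on these data and share reads. Of the single ratios 10 moved, all in Sprr2a2 (1.08 to 1.14) and Sprr2a3 (1.21 to 1.47), and 44 did not. Of the settings for single levels 1 was counted as moved, that of Sprr2h, which was 0.43 TPM as a posterior mean against 0.24 TPM. The 29 not counted as moved include the runs without 1 replicate, in which each level is that of the other library. For Sprr2a2 those were 29922 TPM and 65818 TPM against a mean of 47870 TPM, so they do not show stable levels. Without 1 replicate at a time, the summed level was 30605 to 67350 TPM, the share of counts 1.83% to 3.96% and the number of members at 1 TPM or more 7 in either library. With Clps and Pgc removed from the total, the mean sum was 74537 TPM, and with posterior mean TPM it was 48696. No paired analysis was possible because both libraries belong to 1 group. Depth limits Sprr2g, Sprr2h and Sprr2k, which had at most 17 counts in a library.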

Other observations

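The late cornified envelope (Lce) genes, a further gene cluster of the envelope, were taken out of the cornified envelope list after their values were seen. Of 16 Lce genes at a mean TPM of at least 1, 14 were at least 2-fold higher in replicate 1 and 0 lower, with ratios from 0.74 (Lce3d) to 3.23 (Lce1m) on the log2 scale and a median of 1.48. They summed to 3354 TPM in replicate 1 and 1166 TPM in replicate 2. Across all genes at a mean TPM of at least 1, 5.67% were at least 2-fold higher in replicate 1 and 2.77% lower. Because the Lce genes were taken out after their values were seen, nothing is read from their count. Of the 12 other genes of that list at this level, with a median of 0.15, 2 passed 2-fold, Lor and Cdsn, which encodes corneodesmosin. The basal cell genes Krt5 (-0.42), Krt14 (-0.09), Krt15 (-1.17) and Trp63 (-0.88), also named after their values were seen, had ratios below 0.

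The junction table gives 2 numbers per junction, R1 and R2, that the sources used here do not tie to a library. Among 8 Sprr2 readouts with at least 100 junction reads, with Sprr2a1 and Sprr2a2 as 1, the ratio of R1 to R2 was 4.55 for Sprr2b, 2.98 for Sprr2f, 2.47 for Sprr2a1 with Sprr2a2, 2.20 for Sprr2d, 2.03 for Sprr2i, 1.54 for Sprr2e and 1.13 for Sprr2j-ps. The raw expected counts, replicate 1 over replicate 2, gave these 7 the same order, at 2.69, 2.20, 1.80, 1.60, 1.31, 1.09 and 0.975. Sprr2a3 stood apart, with 15961 reads as R1 and 18900 as R2, a ratio of 0.844 and the lowest of the 8, beside a count ratio of 2.26, which ranked second. The number of reads from Sprr2a1 and Sprr2a2 was 6.38 times that of Sprr2a3 in R1 and 2.18 times in R2. The order was noticed in the data and was not tested.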
